A study of Homo sapiens with 4 samples.

Results

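Open chromatin was examined at 10 genes of the intermediate filament family, KRT5, KRT7, KRT8, KRT14, KRT17, KRT18, KRT19, KRT80, KRT81 and VIM. Their peaks were chosen by position: every peak of the deposited count table that lay inside one of these genes, or within 10 kb of either end of it, was taken. This gave 71 peaks of 190348, and all 71 had enough counts to be tested. KRT8 and KRT18 lie side by side and share 5 peaks, so the peaks were placed 76 times in all. The data were 4 ATAC-seq libraries of LM2 cells, a human breast cancer line derived from MDA-MB-231 with a raised potential to form lung metastases. In ATAC-seq a transposase, Tn5, inserts sequencing adapters where DNA is accessible. Control replicates 1 and 2 carried a nontargeting guide. The libraries called sg1, also replicates 1 and 2, carried a CECR2 deletion made with guide sg1. All cells were grown in medium with puromycin. The labels name neither a clone nor a pool for the deleted cells, and nothing says that the replicates were grown apart. The p-values therefore cover only how these 4 libraries vary, which can be technical variation. ATAC-seq does not read CECR2 RNA or protein, and the deletion itself was not checked here. CECR2 is a bromodomain protein that partners ISWI chromatin remodellers, and the comparison asks what its loss does to open chromatin.

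Keratins form the intermediate filaments of epithelial cells. A type I keratin pairs with a type II keratin. Type I genes lie together in a cluster on chromosome 17 and type II genes in a cluster on chromosome 12. KRT18 is an exception, a type I gene that lies beside KRT8 on chromosome 12. KRT8 and KRT18 are the pair of simple epithelia, with KRT7 and KRT19 as companions in ducts. KRT5 and KRT14 are the pair of basal epithelial cells, and KRT17 is a basal and stress-inducible keratin. KRT80 is an epithelial filament protein and KRT81 is a hair keratin also known from breast cancer cells. VIM encodes vimentin, the filament protein of mesenchymal cells, which is known to be abundant in MDA-MB-231.

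The levels are CPM, counts scaled to library sizes corrected by edgeR's TMM factors, given for control replicates 1 and 2 and then sg1 replicates 1 and 2, and a log2 fold change is sg1 against control with its standard error (SE). Adjusted p-values come from edgeR's quasi-likelihood test over 184717 peaks, with a false discovery rate (FDR) of 0.05 as the threshold. The ends of a gene are called lower and higher by coordinate, since the gene table used here gives no strand. After 109 peaks at the start of chromosome 1 were left out, the libraries held between 15561701 and 43519018 counts, with both sg1 libraries deeper than both controls. The peaks left out took 17.9% to 18.0% of the counts in the controls and 25.4% in sg1. Of 6 marker genes of a mesenchymal-like breast cancer line, all had a peak at or near an end of the gene (no more than 1 kb away), at 14.3 to 49.7 CPM in the control. Of the luminal markers ESR1 had none and the CDH1 peak stood at 0.617 CPM, while ERBB3 had 49.7. Of the blood cell markers PTPRC stood at 0.861 and CD68 at 48.5 CPM. Of the melanocyte and neural markers SOX10 and MLANA had none and MITF had 25.9 CPM. None of the 5 luminal peaks passed the test, 1 mesenchymal-line peak (FN1) was higher, and 3 marker peaks, of SPARC, CD3E and CD68, were lower in sg1.

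The windows before listed gene starts are shown for 4 starts that lie in or beside a member peak. RefSeq (GRCh38.p14) promoters were in the sequence table for 3 of the 10 genes, KRT5, KRT8 and VIM, and for the antisense genes KRT7-AS and VIM-AS1. Each line gives the 250 bases before the start, 5′ to 3′ on the gene's strand, with capitals for a match to a searched motif. The motifs, on both strands, were AP-1 (TGANTCA), the GC box (GGGCGG), the TATA box (TATAAA), the E-box bound by ZEB factors (CACCTG) and the NF-kB site kappaB.
KRT8, chr12:52926470-52926719, minus strand: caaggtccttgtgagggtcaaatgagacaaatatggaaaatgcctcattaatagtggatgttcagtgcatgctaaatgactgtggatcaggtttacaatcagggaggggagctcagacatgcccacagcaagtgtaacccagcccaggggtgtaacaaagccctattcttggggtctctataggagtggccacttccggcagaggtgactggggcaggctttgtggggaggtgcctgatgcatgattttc
KRT7-AS, chr12:52247449-52247698, minus strand: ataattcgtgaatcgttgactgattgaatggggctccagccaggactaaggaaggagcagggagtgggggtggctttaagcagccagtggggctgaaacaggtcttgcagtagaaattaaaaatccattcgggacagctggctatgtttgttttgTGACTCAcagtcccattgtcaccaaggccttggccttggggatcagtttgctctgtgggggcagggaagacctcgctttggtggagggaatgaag
VIM, chr10:17227991-17228240, plus strand: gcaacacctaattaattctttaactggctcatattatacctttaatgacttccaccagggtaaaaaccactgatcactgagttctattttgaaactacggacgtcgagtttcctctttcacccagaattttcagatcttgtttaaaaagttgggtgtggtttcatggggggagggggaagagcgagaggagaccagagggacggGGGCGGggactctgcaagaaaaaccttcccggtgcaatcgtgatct
VIM-AS1, chr10:17226899-17227148, minus strand: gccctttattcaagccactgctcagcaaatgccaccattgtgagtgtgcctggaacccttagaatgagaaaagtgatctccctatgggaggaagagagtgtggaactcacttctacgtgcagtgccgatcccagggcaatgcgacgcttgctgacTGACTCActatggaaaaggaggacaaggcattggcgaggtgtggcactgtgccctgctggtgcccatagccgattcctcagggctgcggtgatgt

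The VIM window held 1 GC box, which 42.6% of all 35116 listed promoters hold in the same 250 bases. The KRT7-AS and VIM-AS1 windows each held an AP-1 match, TGACTCA, starting 95 bases before the start; 6.57% of listed promoters hold an AP-1 match. The KRT8 window held none of the 5 motifs. The KRT5 window held an E-box match (17.5% of promoters) and overlapped no peak. A match is a description of these letters and not a binding site.

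By counts summed over each locus, loss of CECR2 went with higher accessibility at 6 of the 9 keratin loci and with lower accessibility at VIM. Such sums were higher at 30.4% and lower at 22.1% of all genes. All 5 KRT18 peaks are also KRT8 peaks, and the KRT17 sum lost its call in 4 of 13 alternatives. Of the 71 peaks, 30 were higher in sg1 and 5 were lower, and 36 did not pass. Over all tested peaks 11.5% were higher and 16.8% lower, and over tested peaks within 10 kb of any protein-coding gene 12.2% were higher and 15.5% lower. The median log2 fold change of the 71 peaks was 0.36, against 0.02 over all tested peaks. All 30 higher peaks lay at keratin genes, which hold 67 of the 71 peaks. Beside the 11.5% of all tested peaks, 0 of 4 at VIM is no result about VIM. KRT8 had 12 of the 30 (2 shared with KRT18), KRT7 had 8, and KRT80 and KRT81 had 3 each. KRT19 had 2, and KRT5 and KRT17 had 1 each. The lower peaks lay at KRT80 (2), KRT7, KRT19 and VIM (1 each). Both sg1 libraries lay above both controls at 44 of the 71 peaks and below both at 12, against 31.8% and 31.9% of all tested peaks. DESeq2 called 20 of the 71 higher and 2 lower, against 4.93% and 10.4% of all peaks it tested. Without sg1 replicate 2 the lower calls also came to 2. Such counts cannot tell more cells with an open site from more opening per cell.

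**Figure D1:**
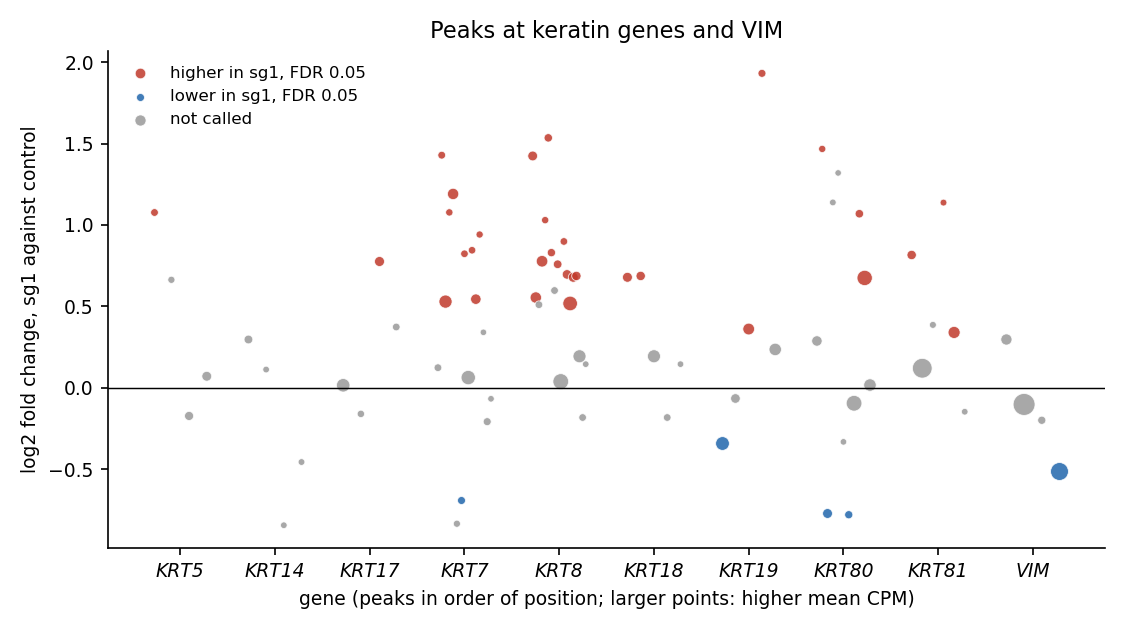
Log2 fold change (sg1 against control) of each peak at the 10 genes, in order of position within a gene; larger points have a higher mean CPM, red and blue points passed an FDR of 0.05, and grey points did not. The red points lie at keratin genes, which hold 67 of the 71 peaks, and reach 1.93 at KRT19. The largest point of each gene lies between -0.34 and 0.30.

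The counts of all peaks of a gene were also summed and tested over all 18549 protein-coding genes with enough counts. Of the 10 loci, 6 were higher (KRT7, KRT8, KRT18, KRT17, KRT80 and KRT81), 1 (VIM) was lower and 3 (KRT5, KRT14 and KRT19) did not pass. Over all genes 30.4% were higher and 22.1% lower by this sum, so a call at a locus was common. DESeq2 called 5 higher and 1 lower, where it called 25.8% and 18.9% of all genes. KRT8 had the largest change among the members, with 124 and 124 CPM in the control libraries and 170 and 178 in sg1 (log2 fold change 0.49 with SE 0.04, adjusted p = 3.97e-27). KRT7 stood at 70.7 and 71.8 CPM and then at 96.9 and 94.5 (log2 fold change 0.43 with SE 0.05, adjusted p = 2.09e-14). VIM stood at 152 and 157 CPM and then at 130 and 137 (log2 fold change -0.21 with SE 0.04, adjusted p = 5.75e-07). In these 3 loci the groups did not overlap, which was common among the sums. Of all 18549 genes, both sg1 libraries lay above both controls at 8191 and below both at 5763.

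**Figure D2:**
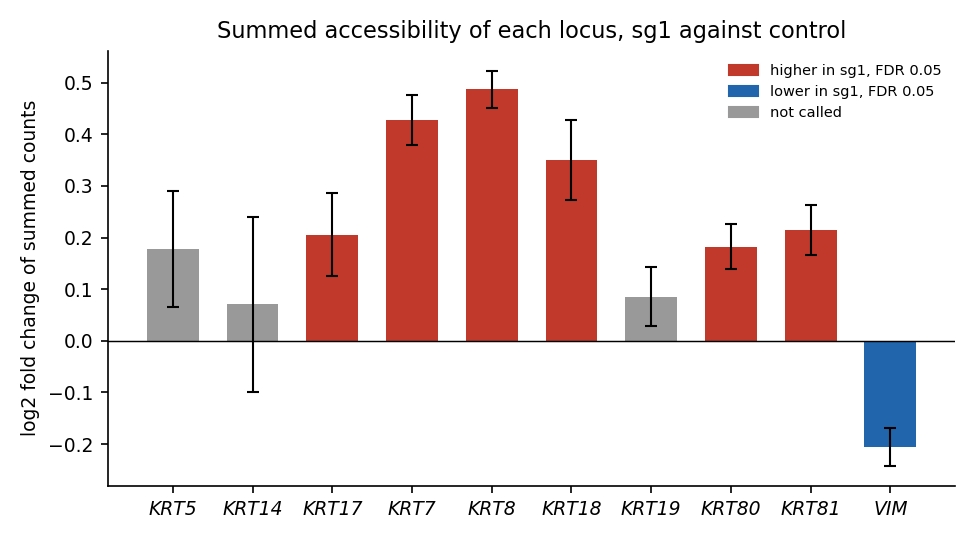
Log2 fold change of the counts summed over all peaks of each locus, with bars from 0 and error bars of 1 SE; red is higher and blue lower at an FDR of 0.05, grey did not pass. KRT8 and KRT7 have the tallest bars (0.49 and 0.43) and VIM alone lies below 0.

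The locus sum per kb of peak ordered the genes in the control from VIM at 44.2 ± 1.06 CPM per kb (SD, n = 2), through KRT81 at 25.4 ± 1.19, KRT19 at 20.7 ± 0.0240, KRT80 at 17.9 ± 1.12, KRT17 at 15.2 ± 0.990, KRT8 at 14.0 ± 0.0574, KRT18 at 13.6 ± 0.776, KRT7 at 12.8 ± 0.140 and KRT5 at 7.54 ± 0.763, to KRT14 at 4.53 ± 0.237. Of the neighbours in this order, KRT8 and KRT18 overlapped in the control libraries and the others did not. In sg1 the order was the same except that KRT8, at 19.7 ± 0.643 CPM per kb, stood above KRT17 at 17.6 ± 1.05. VIM was still highest, at 38.3 ± 1.44 CPM per kb, and KRT14 lowest, at 4.77 ± 0.215. The neighbours KRT80 and KRT8, KRT17 and KRT18, and KRT18 and KRT7 overlapped in sg1. Vimentin chromatin thus remained the most open of the 10 loci per kb in both groups.

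KRT8 and KRT18, the simple epithelial pair, held 12 of the 30 higher peaks between them, spread from beyond the lower end of KRT8 to KRT18. KRT8 spans 52897191 to 52949860 on chromosome 12 in RefSeq and had 18 peaks, of which 12 were higher and 0 lower; with edgeR no KRT8 peak was lower with an unadjusted p under 0.05 either (0 peaks), and DESeq2 called 0 lower. A broad peak just beyond its lower end, at 52895258 to 52896707, had 3.25, 4.23, 9.55 and 10.3 CPM (log2 fold change 1.42 with SE 0.17, adjusted p = 6.00e-08). Both sg1 libraries were more than 2-fold above both controls there. Further in, 7 peaks between 52903368 and 52908700 all had both sg1 libraries above both controls, and 5 of them were called. The peak at 52904729 to 52905412 had 9.56, 8.92, 15.2 and 16.6 CPM (log2 fold change 0.78 with SE 0.12, adjusted p = 4.41e-06). The peak at 52903368 to 52904309 had 8.59, 10.8, 13.7 and 14.5 CPM (log2 fold change 0.55 with SE 0.12, adjusted p = 0.000867). Both kept their calls in all 12 alternatives. Without sg1 replicate 2 the calls at 52907282 (adjusted p = 0.220) and 52908191 (adjusted p = 0.0837) were lost, the former also without control replicate 2 (adjusted p = 0.0906) and in DESeq2 (adjusted p = 0.126). The largest change of this group was at 52907793 to 52908141, with 1.505, 2.15, 5.03 and 5.37 CPM (log2 fold change 1.53 with SE 0.23, adjusted p = 4.86e-06).

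Around the listed KRT8 start whose window is printed above, 4 of 5 peaks within 3 kb were higher. The peak that covers 211 of the 250 printed bases, at 52926334 to 52926680, had 4.90, 4.43, 7.11 and 8.10 CPM (log2 fold change 0.70 with SE 0.17, adjusted p = 0.00200). This call was lost without sg1 replicate 2 (adjusted p = 0.0570). Of the small peaks beside it, the one at 52924265 lost its call without sg1 replicate 1 (adjusted p = 0.0528). The one at 52926168 lost it without sg1 replicate 2 (adjusted p = 0.127), without control replicate 1 (log2 fold change 0.57, adjusted p = 0.225) and in DESeq2 (adjusted p = 0.134). A taller peak at 52927160 to 52927758 had 21.2, 22.01, 29.6 and 32.3 CPM (log2 fold change 0.52 with SE 0.08, adjusted p = 1.44e-05). The tallest KRT8 peak, at 52924760 to 52925828, did not pass, with 32.5, 32.0, 31.8 and 34.5 CPM (log2 fold change 0.04 with SE 0.08). Its groups overlapped, so within a few kb some sites were higher while the most open one was not.

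KRT18 spans 52948855 to 52952906, and its 5 peaks are also peaks of KRT8. The peak just inside its lower end, at 52948857 to 52949307, had 4.17, 4.56, 7.11 and 6.89 CPM (log2 fold change 0.69 with SE 0.17, adjusted p = 0.00282). The peak at 52945718 to 52946372 had 4.90, 6.25, 8.94 and 8.71 CPM (log2 fold change 0.68 with SE 0.16, adjusted p = 0.00134). Both sg1 libraries were above both controls at these sites. The tallest peak, at 52949567 to 52950242 inside KRT18 and over the higher end of KRT8, did not pass, with 19.03, 15.4, 20.6 and 19.04 CPM (log2 fold change 0.19 with SE 0.10, adjusted p = 0.156). It was called without control replicate 1 (log2 fold change 0.36, adjusted p = 0.0137). The KRT18 locus sum was 31.1, 28.7, 39.3 and 37.1 CPM (log2 fold change 0.35 with SE 0.08, adjusted p = 4.96e-05). The genes overlap, so the shared peaks cannot be given to either one.

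KRT7, the type II keratin of simple and ductal epithelia, spans 52233243 to 52255853 on chromosome 12. Of its 15 peaks, 8 were higher and 1 lower. The gains were largest toward its lower end, where 4 of 5 peaks over or before that end were higher, with a median of 1.077 for the 5. Past the end 4 of 10 were higher and 1 lower, with a median of 0.20, and this difference was not tested. The peak over the lower end, at 52232545 to 52233439, had 5.92, 8.47, 16.1 and 16.1 CPM (log2 fold change 1.19 with SE 0.13, adjusted p = 1.90e-08). Its neighbour at 52230336 to 52231200 had 15.9, 15.4, 23.3 and 21.9 CPM (log2 fold change 0.53 with SE 0.09, adjusted p = 5.73e-05). A low peak at 52230082 to 52230267 had 1.26, 1.24, 3.14 and 3.62 CPM (log2 fold change 1.43 with SE 0.27, adjusted p = 0.000134). These 3 peaks kept their calls in all alternatives that could be run for them. The fourth, at 52231989 to 52232148, had 1.12, 0.912, 2.28 and 2.05 CPM and lost its call without sg1 replicate 1 (adjusted p = 0.0794) and in DESeq2 (adjusted p = 0.0894). All but 1 of the 5 peaks at this end lay within 1 kb of the pseudogene TMT1AP1.

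Inside KRT7 the calls were less firm. The peak at 52247324 to 52247716, which holds the whole KRT7-AS window printed above, had 6.02, 8.40, 10.7 and 10.0 CPM (log2 fold change 0.54 with SE 0.15, adjusted p = 0.00563). This call was lost without control replicate 1 (log2 fold change 0.30, adjusted p = 0.193), without sg1 replicate 1 (adjusted p = 0.0644) and in DESeq2 (adjusted p = 0.0518). ATAC-seq has no strand, so KRT7 and its antisense gene share this value. The lower peak, at 52235994 to 52236257, had 2.82, 3.84, 2.23 and 1.82 CPM (log2 fold change -0.69 with SE 0.25, adjusted p = 0.0361). It lost its call without control replicate 2 (log2 fold change -0.47, adjusted p = 0.236), without sg1 replicate 1 (adjusted p = 0.0783), without sg1 replicate 2 (adjusted p = 0.278), with library size alone (adjusted p = 0.0505) and in DESeq2 (adjusted p = 0.174). The other 3 higher peaks inside KRT7, at 52243498, 52247157 and 52252190, had control means of 0.966 to 1.42 CPM. Each lost its call with sg1 replicate 1 or sg1 replicate 2 left out (adjusted p = 0.0609 to 0.179) and without 1 control library. That was control replicate 2 for the first (adjusted p = 0.112) and control replicate 1 for the others (adjusted p = 0.159 and 0.196). DESeq2 called none of the 3 (adjusted p = 0.161, 0.168 and 0.199). The tallest KRT7 peak, at 52243824 to 52244648, did not pass, with 26.4, 22.3, 25.6 and 25.4 CPM (log2 fold change 0.06 with SE 0.09).

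KRT19, the type I companion of KRT7, had the largest change of all 71 peaks and no change of its locus sum that passed. It spans 41523617 to 41528308 on chromosome 17. All of its 5 peaks except the one at 41530100 are also the peaks of KRT15, so they cannot be given to KRT19 alone. The peak over its higher end, at 41528238 to 41528554, had 0.874, 1.37, 3.95 and 4.41 CPM (log2 fold change 1.93 with SE 0.27, adjusted p = 1.58e-06). The counts behind it were 18, 21, 175 and 174. Both sg1 libraries were far above both controls. The tallest KRT19 peak, at 41521477 to 41522293 beyond the lower end, was lower, with 23.4, 25.6, 20.8 and 17.8 CPM (log2 fold change -0.34 with SE 0.09, adjusted p = 0.00600). Without sg1 replicate 2 its log2 fold change was -0.21 (adjusted p = 0.250), and DESeq2 did not call it (adjusted p = 0.0518). A peak inside the gene, at 41527045 to 41527866, had 12.04, 11.1, 15.3 and 14.4 CPM (log2 fold change 0.36 with SE 0.11, adjusted p = 0.0147). It was not called without control replicate 2 (adjusted p = 0.0625), without sg1 replicate 1 (adjusted p = 0.154) or in DESeq2 (adjusted p = 0.0936). The locus sum was 58.3, 58.2, 63.3 and 60.2 CPM (log2 fold change 0.09 with SE 0.06, adjusted p = 0.199). With peaks more than 1 kb outside the gene left out, which leaves out the lower peak, the sum was higher (log2 fold change 0.40, adjusted p = 0.000199). With library size alone the 10 kb sum was also called (log2 fold change 0.13, adjusted p = 0.0355).

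**Figure D3:**
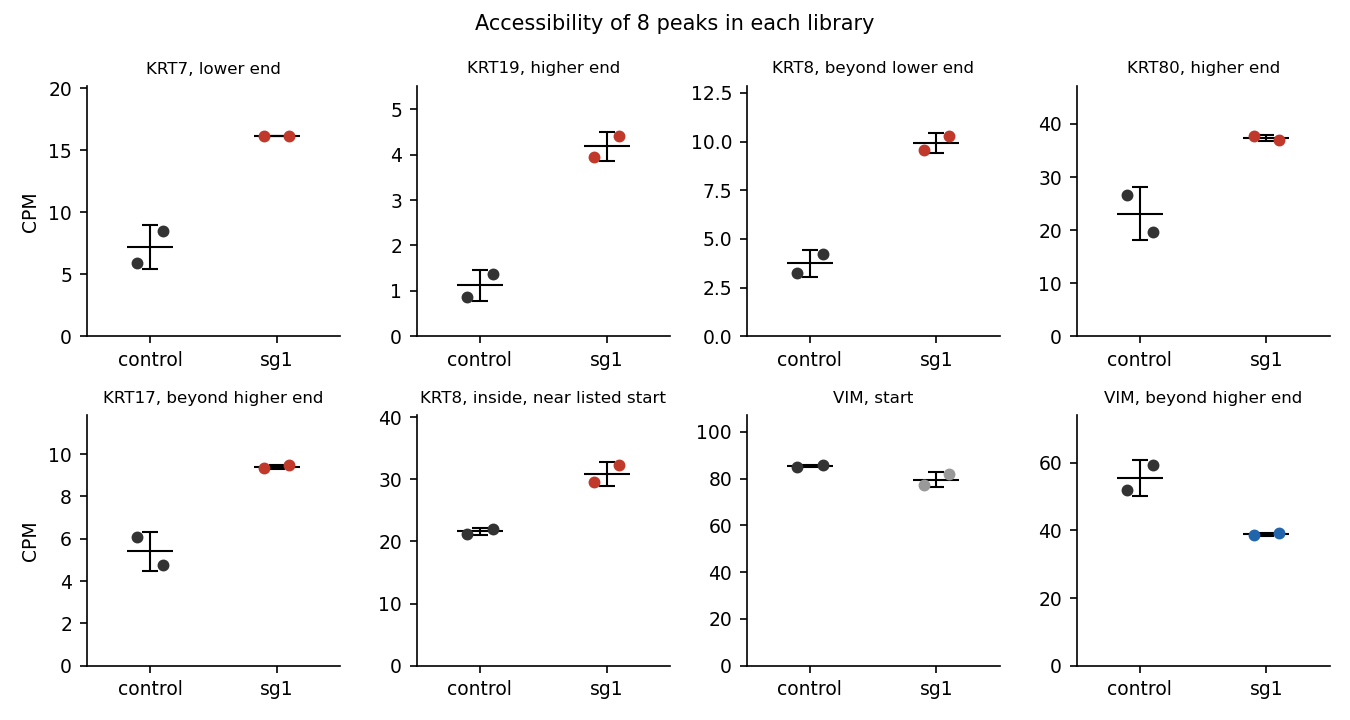
CPM of 8 member peaks in each library, on axes from 0; dots are libraries, horizontal lines means and error bars SD (n = 2 per group), and the sg1 dots are red where the peak was higher, blue where lower and grey where it did not pass. At KRT7 both sg1 libraries read 16.1 CPM against 5.92 and 8.47 in the control, and at the VIM start the groups differ little.

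KRT80 gained at its higher end and lost at other sites. The gene spans 52168996 to 52192014 on chromosome 12. The peak over its higher end, at 52191690 to 52192764, had 26.6, 19.6, 37.7 and 36.9 CPM (log2 fold change 0.67 with SE 0.09, adjusted p = 6.95e-07). A small peak beside it, at 52191383 to 52191609, had 2.38, 2.34, 4.72 and 5.22 CPM (log2 fold change 1.07 with SE 0.22, adjusted p = 0.000286). Beyond the lower end, a peak at 52164666 to 52164962 had 1.02, 0.456, 1.78 and 2.51 CPM (log2 fold change 1.47 with SE 0.35, adjusted p = 0.00190). Its log2 fold change was 2.21 without control replicate 1 and 1.06 without control replicate 2. All 3 had both sg1 libraries above both controls. Nearer the same end, a peak at 52168330 to 52168716 was lower, with 8.59, 9.12, 5.10 and 5.24 CPM (log2 fold change -0.77 with SE 0.16, adjusted p = 0.000255). Another lower peak, at 52181830 to 52182047 inside the gene, had 4.51, 3.19, 2.50 and 2.03 CPM (log2 fold change -0.78 with SE 0.24, adjusted p = 0.0121). It lost its call without control replicate 1 (log2 fold change -0.49, adjusted p = 0.235), without sg1 replicate 2 (adjusted p = 0.171) and in DESeq2 (adjusted p = 0.0968). KRT80 thus moved in both directions within 1 locus, and its sum rose by 0.18 (SE 0.04, adjusted p = 0.000157).

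KRT81, a type II hair keratin, spans 52285913 to 52291534 on chromosome 12 inside the longer KRT86 gene, so its 6 peaks belong to both. The tallest, at 52280071 to 52281542, had 57.6, 61.0, 63.5 and 65.1 CPM and did not pass (log2 fold change 0.12 with SE 0.06, adjusted p = 0.151). With library size alone as the scaling it was called (adjusted p = 0.0397), as it was with loess offsets (adjusted p = 0.0234). The peak at 52279004 to 52279273 had 4.08, 4.23, 7.04 and 7.57 CPM (log2 fold change 0.82 with SE 0.17, adjusted p = 0.000501). Inside the gene, the peak at 52287981 to 52288797 had 12.9, 12.6, 16.9 and 15.4 CPM (log2 fold change 0.34 with SE 0.11, adjusted p = 0.0166), a call lost without sg1 replicate 1 (adjusted p = 0.217) and in DESeq2 (adjusted p = 0.104). The third higher peak, at 52287737 to 52287895, rested on 8, 11, 56 and 43 counts. It lost its call without control replicate 1 (log2 fold change 0.71, adjusted p = 0.313), without sg1 replicate 1 (adjusted p = 0.233), without sg1 replicate 2 (adjusted p = 0.103) and in DESeq2 (adjusted p = 0.250). The locus sum was 75.7, 80.9, 90.3 and 90.9 CPM (log2 fold change 0.21 with SE 0.05, adjusted p = 6.60e-05), and with a 1 kb window its log2 fold change was 0.38.

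KRT5 and KRT14, the basal pair, were the least open members per kb, with 1 higher peak of 8 between them. This count lies near the 11.5% of all tested peaks that were higher and is no result about the pair. KRT5, on chromosome 12 from 52514575 to 52520394, had 4 peaks. The peak at 52506987 to 52507429, beyond its lower end, was higher, with 1.31, 1.56, 2.87 and 3.17 CPM (log2 fold change 1.08 with SE 0.27, adjusted p = 0.00276). The peak nearest to its listed start, at 52521289 to 52521595, had 1.12, 0.847, 1.47 and 1.70 CPM and did not pass (log2 fold change 0.66 with SE 0.34, adjusted p = 0.142). KRT14, the partner of KRT5, spans 41582279 to 41586895 on chromosome 17, with 4 peaks outside the gene and none inside it. None of the 4 passed in edgeR, none had an unadjusted p under 0.05, and DESeq2 called none. Their log2 fold changes ran from -0.85 to 0.30. The KRT14 locus held 130, 90, 293 and 245 counts in all, or 6.31, 5.86, 6.61 and 6.20 CPM (log2 fold change 0.07 with SE 0.17), so a small difference was not detectable at this depth.

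KRT17, the stress-inducible keratin, spans 41619442 to 41624575 on chromosome 17 and had 1 higher peak of 4. It lies beyond the higher end at 41625561 to 41626122, within 1 kb of the pseudogene KRT42P, and had 6.07, 4.75, 9.34 and 9.47 CPM (log2 fold change 0.78 with SE 0.16, adjusted p = 0.000231). Both sg1 libraries were above both controls. The tallest peak, at 41612669 to 41613407, lies at KRT16 and did not pass, with 20.9, 20.1, 19.4 and 22.1 CPM (log2 fold change 0.01). The KRT17 locus sum was 30.8, 28.1, 32.6 and 35.5 CPM (log2 fold change 0.21 with SE 0.08, adjusted p = 0.0243). This call was lost without control replicate 2 (log2 fold change 0.14, adjusted p = 0.178), without sg1 replicate 2 (adjusted p = 0.233), with loess offsets (log2 fold change 0.12, adjusted p = 0.230) and in DESeq2 (adjusted p = 0.0521). With a 1 kb window the log2 fold change was 0.60 (adjusted p = 0.000155).

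VIM spans 17228241 to 17237593 on chromosome 10 and had 4 peaks. The broad peak over its start, at 17228066 to 17229655, was the most open of all 71 by CPM, with 85.2, 85.7, 77.2 and 81.9 CPM. It did not pass (log2 fold change -0.10 with SE 0.06, adjusted p = 0.179), although both sg1 libraries lay below both controls. It covers 175 of the 250 printed bases before the VIM start. The peak beyond the higher end, at 17237996 to 17239324, was lower, with 51.8, 59.3, 38.6 and 39.1 CPM (log2 fold change -0.51 with SE 0.07, adjusted p = 7.92e-07). It kept its call in all 12 alternatives run, with log2 fold changes from -0.61 to -0.42. The peak that holds the VIM-AS1 window, at 17226844 to 17227259, had 11.1, 8.92, 11.8 and 13.0 CPM and did not pass (log2 fold change 0.30 with SE 0.13, adjusted p = 0.0775). It was called higher without control replicate 1 (log2 fold change 0.47, adjusted p = 0.0166), with library size alone (adjusted p = 0.0372) and with loess offsets (adjusted p = 0.0391). A small peak inside the gene had 3.49, 2.93, 2.44 and 3.22 CPM and overlapping groups. The lower VIM sum thus came with 1 called peak, beyond the end of the gene opposite its start.

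The tallest peak of each gene was taken by its mean CPM over all 4 libraries. Of these 10 peaks, 0 were higher in edgeR, also at an unadjusted p under 0.05 and in DESeq2. In edgeR 1 (KRT19) was lower and 9 did not pass. The share called among the tallest peaks of all genes was not computed. Of all tested peaks at 10 CPM or more, 19.4% were higher and 27.2% lower. With only 10 peaks, the counts of 0 and 1 are no result about the members. At KRT80 the count of 0 rests on the ranking over all 4 libraries. Its tallest peak over all libraries, at 52186062 to 52186917, had a mean of 33.6 CPM in the control and 31.4 in sg1. The higher KRT80 peak at 52191690 had 23.1 and 37.3 CPM, so ranked in sg1 alone it was the tallest. At the other 9 genes the same peak was tallest in either group. The exceptions among the alternatives were KRT18, called higher without control replicate 1 (log2 fold change 0.36, adjusted p = 0.0137), and KRT81, called higher with library size alone or loess offsets. The log2 fold changes of the 10 peaks ran from -0.34 to 0.30. Of the 51 member peaks with a mean under 10 CPM, 22 were higher and 3 lower, where all tested peaks at that level were higher in 10.1% and lower in 15.0% of cases. Of the 20 at 10 CPM or more, 8 were higher and 2 lower, where all tested peaks were higher in 19.4% and lower in 27.2%. Of the 30 higher peaks, 11 were up more than 2-fold, and none of the 5 lower peaks was down by that much.

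The neighbourhood of the type II cluster was also higher. The cluster runs from KRT80 to KRT18, from 52168996 to 52952906 on chromosome 12. It holds 27 keratin genes in the gene table, the type I gene KRT18 among them. Of its 101 tested peaks 41 were higher and 10 lower, with a median log2 fold change of 0.51. Without the member peaks, 15 of 51 were higher and 8 lower, with a median of 0.36. In the 1 Mb below the cluster 27 of 107 peaks (25.2%) were higher and 6 lower, with a median of 0.39. In the 1 Mb above it 48 of 132 (36.4%) were higher and 4 lower, with a median of 0.38. Over the whole of chromosome 12, 17.3% of peaks were higher and 12.5% lower, with a median of 0.16. The 54 member peaks on chromosome 12 had 27 higher and 3 lower, with a median of 0.55. The flanks thus moved with the keratin gains on this chromosome, and their part in the result was not tested.

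The type I cluster on chromosome 17 was different in its counts. It runs from KRT222 to KRT17, from 40654665 to 41624575, with 28 keratin genes. Of its 82 tested peaks 7 were higher and 16 lower, with a median of -0.06. Over the whole of chromosome 17, 16.97% of peaks were higher and 11.3% lower, with a median of 0.16. In the 1 Mb below it 54 of 175 peaks were higher and 15 lower, and in the 1 Mb above it 29 of 156 were higher and 12 lower, with medians of 0.34 and 0.19. The 13 member peaks on chromosome 17 had 3 higher and 1 lower, with a median of 0.11. The KRT19 gain thus lay in a cluster region with more lower than higher peaks, counting every tested peak of the region. The difference between the clusters was not tested. Around VIM, 6 of 90 peaks were higher and 10 lower in the 1 Mb below, and 4 of 81 higher and 16 lower in the 1 Mb above, with medians of -0.01 and -0.04. Over the whole of chromosome 10, 11.5% were higher and 16.6% lower.

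**Figure D4:**
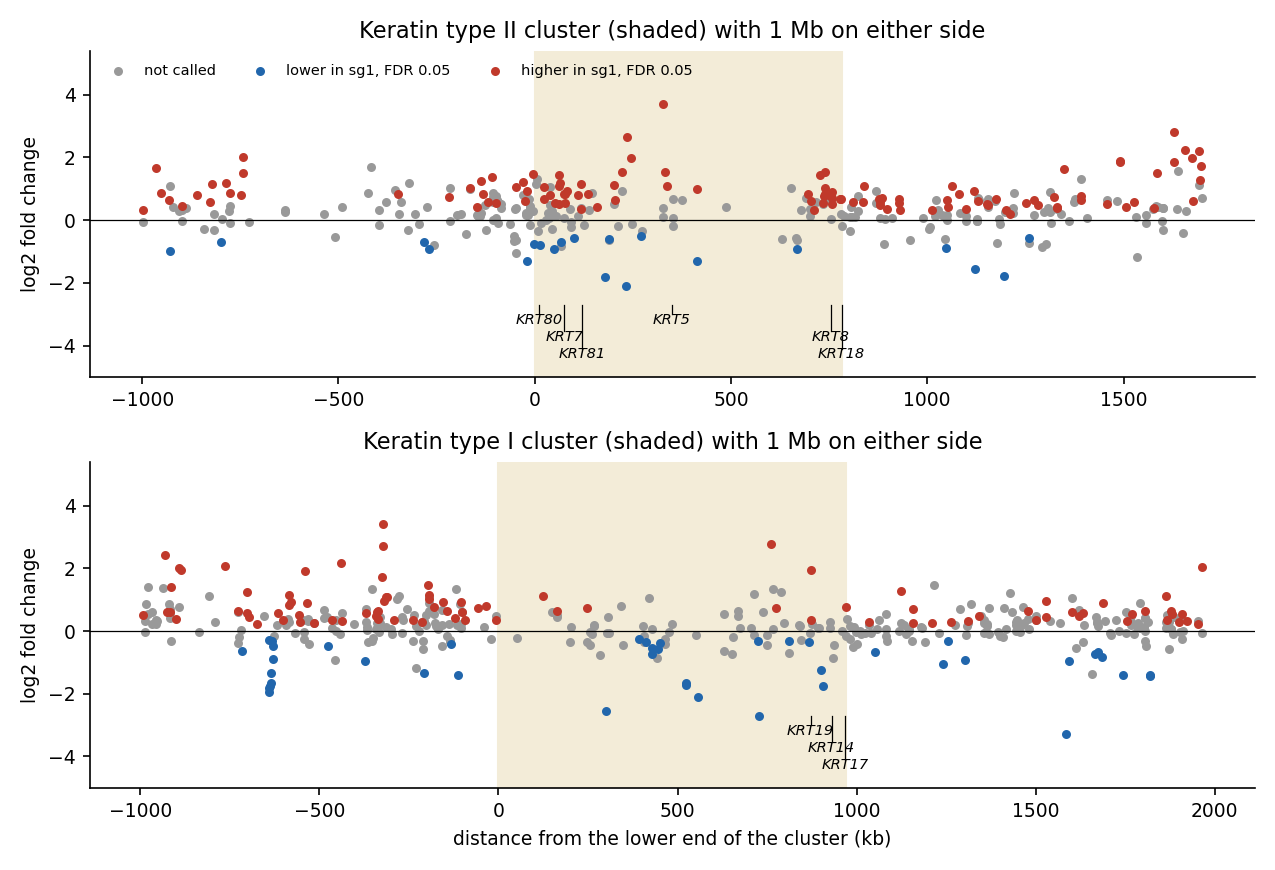
Log2 fold change (sg1 against control) of every tested peak along the keratin type II cluster on chromosome 12 (top) and the type I cluster on chromosome 17 (bottom), each shaded, with 1 Mb on either side; the horizontal axis is the distance in kb from the lower end of the cluster, and red and blue points passed an FDR of 0.05. In the type II cluster 41 of 101 peaks are red and 10 blue, and in the type I cluster 7 of 82 are red and 16 blue.

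Of 45 other keratin genes, 37 had a peak, and by locus sum 10 (27.0%) were higher and 7 (18.9%) lower. These shares lie near the 30.4% and 22.1% of all genes and are no result about the list. The median log2 fold change was 0.12 against 0.05 over all genes. KRT79, a type II keratin of skin, stood at 15.0 ± 1.51 CPM without the deletion and at 9.39 ± 0.856 with it (SD, n = 2; log2 fold change -0.66 with SE 0.13, adjusted p = 2.89e-06). KRT37, a type I hair keratin, stood at 4.81 ± 0.541 and 8.82 ± 0.0419 CPM (log2 fold change 0.86 with SE 0.17, adjusted p = 3.17e-06). KRT83 (0.44), KRT86 (0.19) and KRT38 (0.77), also hair keratins, were higher, and KRT86 shares the 6 peaks of KRT81. In all, 13 of the 89 peaks of this list are member peaks, among them every peak of KRT15 and KRT16. Loci of the list also share peaks, and KRT72 and KRT74 have the same counts, so the loci are not separate. The count of lower loci was 4 without control replicate 2, 4 without sg1 replicate 1 and 1 without sg1 replicate 2. By single peaks away from the members, 14 of 70 (20%) were higher and 11 (15.7%) lower, against 11.5% and 16.8% of all tested peaks.

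Of 14 other intermediate filament genes, 12 were tested by locus sum, with 4 higher and 2 lower. SYNM, which encodes the vimentin and desmin partner synemin, stood at 146 ± 0.925 CPM in control cells and 116 ± 0.677 after deletion (log2 fold change -0.33 with SE 0.04, adjusted p = 9.19e-14). The lamin genes LMNA (0.17) and LMNB2 (0.36), the lens filament gene BFSP1 (0.22) and NES, which encodes nestin (0.20), were higher. INA, a neuronal filament gene, was the other lower one (-0.25), and the count of lower genes was 1 without sg1 replicate 1 and 1 without sg1 replicate 2. DES and GFAP, the filament genes of muscle and astrocytes, did not pass (log2 fold changes -0.06 and 0.08).

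Of 12 genes for proteins that link keratin or vimentin filaments to junctions and other structures, 4 were higher and 3 lower by locus sum. PKP2, which encodes plakophilin 2 of desmosomes, stood at 28.7 ± 2.03 CPM in control cells and 42.2 ± 0.344 after deletion (log2 fold change 0.56 with SE 0.08, adjusted p = 8.57e-11). PKP1, another plakophilin gene, stood at 95.0 ± 3.06 and 69.3 ± 3.10 CPM (log2 fold change -0.46 with SE 0.05, adjusted p = 7.62e-16). PKP4 (-0.44) and DST (-0.24), which encodes a plakin, were lower, and JUP, which encodes plakoglobin, was higher (0.18). The count of higher linker genes was 1 without control replicate 1 and 1 without sg1 replicate 2. DSP, which encodes desmoplakin, the protein that ties keratins to desmosomes, did not pass (log2 fold change -0.02). The shares called in these lists were near those of all genes, 30.4% higher and 22.1% lower.

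The farthest peak inside the 10 kb limit and the nearest one outside it are given for each gene. Inner and outer peaks were not tested against each other. By edgeR's test over all peaks, the outer peaks of KRT5 (adjusted p = 0.0110), KRT7 (0.00746) and KRT81 (0.00358) were higher. Those of KRT14 (adjusted p = 0.0142) and VIM (0.000614) were lower, and the other outer peaks did not pass. Among the inner peaks, those of KRT5 and KRT81 were higher and the others did not pass. At KRT7 the inner and outer peaks had log2 fold changes of 0.12 at 9.50 kb and 0.53 at 10.7 kb from the gene. At KRT8 the values were 0.14 at 7.22 kb and 0.58 at 12.01 kb, and at KRT18 0.14 at 4.18 kb and -0.34 at 18.8 kb. At KRT19 they were 0.23 at 1.79 kb and 0.08 at 19.1 kb. The outer peaks of these 4 genes had larger, smaller or opposite values than the inner ones. At KRT5 the pair was 1.08 at 7.15 kb and 1.54 at 12.8 kb. At KRT14 it was -0.46 at 4.51 kb and -1.76 at 22.5 kb, and at KRT17 0.01 at 6.04 kb and 0.15 at 10.4 kb. At KRT80 it was 0.02 at 5.66 kb and 0.24 at 11.2 kb. At KRT81 the inner and outer peaks were alike in size, with 0.82 at 6.64 kb and 0.83 at 13.4 kb. At VIM they differed in sign, with 0.30 at 0.982 kb and -0.35 at 11.4 kb.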

How the data were processed

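The deposited table holds raw counts for 190348 peaks in 4 libraries, made by the authors with featureCounts 1.6.0 from alignments whose names say cut sites, per the file headers. A count thus stands for a transposase cut. Each library came from 50000 cells, per the labels' protocols. Per the submitters' processing notes, the tools included deepTools 3.1.3, MACS2 2.2.4, Trimmomatic 0.39, Bowtie2 and DESeq2 1.32. Which genome build was used is not given in the sources here. The RefSeq GRCh38.p14 gene table placed peaks, since a peak lay within 1 kb of either end for 73.3% of protein-coding genes, against 30.9% and 31.1% after shifts of 100 kb. Positions are as the deposited table lists them.

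Peaks starting in the first 250 kb of chromosome 1 were left out, since an earlier analysis of these data found mitochondrial-like peaks there. The share of counts in the peaks left out also differed between groups. The counts went into edgeR 4.0.16 under R 4.3.3 (filterByExpr, TMM, quasi-likelihood test on group, Benjamini-Hochberg adjustment) after checks on simulated counts. Locus sums used the same library sizes and factors. The SE is the log2 fold change divided by the square root of F. The alternatives were DESeq2 1.42.0, library size alone, RLE factors, loess offsets (limma 3.58.1), no filter, a mean of at least 50 counts, the chromosome 1 start kept, a replicate block, each library left out, and windows of 1 and 25 kb. Named peaks are each gene's tallest peak, its start or end peak and every called peak; of each related list, up to 5 genes with the smallest p. INA, DES, GFAP, DSP and a few peaks that were not called fall outside this rule and were chosen after their values were seen. The members and lists were chosen with earlier results of these data known. The median count per peak was 26 to 35 in the controls and 64 to 73 in sg1, which sets the precision.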

Additional observations from a re-analysis of the deposited data

How the results depend on the processing

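Of the 35 called member peaks, 19 (17 higher and 2 lower) kept their call in each alternative that could be run, and the other 16 lost it in at least 1; 13 were lost with DESeq2 and 16 with a library left out, which also leaves fewer samples. None changed direction. Of the 7 called locus sums, 6 kept their call in all 13 alternatives, KRT17 being the exception. DESeq2 called 8475 peaks higher and 17866 lower over all peaks, against 21261 and 31038 with edgeR, and 2 member peaks lower; with a mean of at least 50 counts 20153 of all peaks were lower, from fewer peaks tested. With a window of 25 kb 10 member peaks were lower, and with 1 kb 4 other keratin loci were higher and 4 lower. With each library left out in turn, all peaks gave 11148 to 20243 higher and 18880 to 29467 lower, member peaks 21 to 28 higher and 2 to 5 lower, other keratin loci 1 to 6 lower, other filament loci 1 to 3 lower and linker loci 1 to 3 higher. The replicate block gave 30 member peaks higher and 5 lower, and changed no call of a member. Deviations of libraries with the same number correlated at 0.000131 over 184717 peaks. With 2 libraries per group, this value cannot show whether libraries of the same number were prepared together. The cause of the other differences was not tested. Library size alone moved the median log2 fold change of all peaks from 0.02 to 0.06. At small peaks the shallower control libraries limit the precision.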
